A study of Mus musculus with 12 samples.

Results

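The genes described here are genes of ribosome building, together with Nol3, Nol4 and Nol4l, which match by name only. They are 55 of the 15803 genes with at least 1 read in the series, chosen by symbol, by a rule that uses no measured value but was set with earlier results of these data known: every symbol of the families Utp, Nop, Nol and Rrp followed by a number, the RNA polymerase I subunits Polr1a to Polr1f, the RNA helicases Ddx10, Ddx18, Ddx27, Ddx52 and Ddx54, and Fbl, Ncl, Npm1, Dkc1, Bop1, Pes1 and Wdr12. Of these, 54 had a read in all 12 libraries and passed the filter on low values in every comparison. Nol4, the remaining member, had at most 5 reads in any library and was not tested. KPC cells, a mouse pancreatic ductal adenocarcinoma line made from mice in which conditional alleles, mutant Trp53 included, are switched on by Pdx1-Cre, were treated with PBS, with 20 μM cisplatin (Cis) for 6 h or with 20 μM Cis for 21 h, and all groups carry the same alleles. Each group had 2 libraries of ribosome footprints, the stretches of mRNA that ribosomes protect from RNase I, and 2 libraries of RNA-seq from the same kind of lysate. The labels call the control cells untreated, while the study's methods name PBS, and how long the PBS cells were kept is not labelled. KPC is 1 line, and nothing in the labels says that replicates were separate cultures, so p-values measure the spread between these libraries only.

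Ribosomes are assembled in the nucleolus. RNA polymerase I transcribes the long precursor of the rRNAs, small nucleolar ribonucleoproteins (snoRNPs) guide its methylation (box C/D) and pseudouridylation (H/ACA), and many assembly factors then fold, cut and carry the small (40S) and large (60S) subunits towards export. Cisplatin forms crosslinks in DNA, and bulky lesions in a gene stop RNA polymerases that meet them. Nucleolar transcription and assembly are also known to be sensitive to chemotherapy drugs, and growing tumor cells express the assembly factors at high levels, many of them under MYC.

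Footprint libraries held 3375480 to 5204127 reads and RNA-seq libraries 1985344 to 2901692, of which 50.8 to 55.3% came from 2 transcripts, Lars2 and Tmem38b. All members together had 47629 to 73176 reads in a footprint library but 7359 to 12455 in an RNA-seq library, and the median SE of a member's log2 fold change was 0.12 in footprints and 0.18 in RNA. Values are RPKM (reads per kilobase of sequence, scaled to the size of the library), per coding sequence for footprints and per transcript for RNA. They are shares of a library, so a change in the total amount of RNA or of translation in the cells cannot be seen in them, and fewer cells and less RNA per cell cannot be told apart. The cells carried most but not all of 7 epithelial markers of a ductal carcinoma line at clear levels. These summed to 9113 to 9794 footprint RPKM in PBS and to 6728 to 6861 at 21 h, nearly all of it Krt8, Krt18 and Krt19. In PBS, Cdh1 was at 138 and 147 footprint RPKM. Epcam was near absent in PBS, at 1.83 and 0.681 footprint RPKM and 0 and 0.169 RNA RPKM. RNA of Krt7 (1.88 and 1.18 RPKM) and Sox9 (3.54 and 2.33) was low in PBS. Fibroblast, leukocyte and endothelial markers, summed separately for each cell type, reached at most 6.14 RPKM in any library, with Thy1 and Cd3e at 0 throughout. The leukocyte markers summed to 0.403 to 1.03 RNA RPKM in PBS, 0 at 6 h and 2.13 to 4.67 at 21 h, nearly all of it Cd68, a lysosomal protein and the one leukocyte marker with enough signal to test, which passed in RNA at 21 h (1.52, adjusted p = 0.0299). Ptprc, the common leukocyte antigen, had no RNA read in any library and at most 0.229 RPKM in a footprint library. The part of such cells in the members' changes was not tested.

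In PBS, the members were among the more heavily translated genes of the line. Their median footprint level was 60.3 RPKM against 11.2 over all 12780 genes listed in PBS, and 51 of 55 lay above that overall median. Their median RNA level was 12.6 RPKM against 3.78 over 13040 listed genes. Npm1, the nucleolar histone chaperone nucleophosmin, had the highest level with 4532 and 4577 footprint RPKM in the 2 libraries, followed by Ncl (nucleolin) with 1294 and 1663, Nop16 with 748 and 679 and Fbl (fibrillarin) with 606 and 621. The libraries of neighbours in this order did not overlap. Utp20, a very long scaffold of the small subunit path, was near the other end with 12.9 and 12.4. The ratio of footprint to RNA RPKM had a median of 4.49 over the members and 3.44 over all 9295 genes tested. It was highest for Nop58 (30.6), Nop16 (23.2) and Nop10 (21.2), and lowest for Nol4l (1.86). For Nop58 and Wdr12 the transcript used is 9507 and 10012 bases long, with coding sequences of 1608 and 1269 bases, which lowers RNA RPKM and raises this ratio if the cells use a shorter form. Npm1 and the pair Utp14a and Utp14b have near-identical copies elsewhere in the genome, so their levels are less certain.

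After 6 h of Cis, 1 of the 54 members passed the test in footprints. It was Nop16, a factor of the large subunit path, with 748 and 679 RPKM in PBS, 1138 and 977 at 6 h and 704 and 818 at 21 h. Both 6 h libraries lay above all 4 others, and the log2 fold change against PBS was 0.55 ± 0.10 (SE) with an adjusted p of 0.0405. RNA of Nop16 was at 34.4 and 27.0 RPKM in PBS, 24.9 and 41.1 at 6 h and 33.7 and 43.0 at 21 h, with overlapping groups and a log2 fold change of 0.13 (adjusted p = 0.849) at 6 h. Of all 10383 transcripts tested in footprints, 1.05% were called higher and 0.992% lower at 6 h, so 1 member of 54 is near that background. An unadjusted p under 0.05 was reached by 18 members and by 2217 transcripts. With voom on the recovered reads, 12 members passed (7 higher, 5 lower) and 1276 transcripts (454 higher, 822 lower). The call of Nop16 was lost in several alternatives, among them with no filter on low values (adjusted p = 0.0975), with eBayes without a trend (0.141), and without PBS replicate 1 (0.118), PBS replicate 2 (0.159), 6 h replicate 1 (0.227) or 6 h replicate 2 (0.18). The median log2 fold change was 0.06 over the members, with 29 of 54 above 0, and -0.011 over all transcripts. In RNA, limma called none of the 54 members and 0% of all 9443 transcripts at 6 h. The RNA median was 0.12 over the members, with 39 of 54 above 0, and -0.006 over all transcripts, with 49.1% above 0. At an unadjusted p under 0.05 there were 7 members and 1086 transcripts, and voom on the recovered reads called 3 members, all lower (Npm1, Ncl and Ddx10), and 2.43% of all transcripts (57 higher, 172 lower). RNA of Ddx10, an RNA helicase of the small subunit path, was at 11.8 and 11.3 RPKM in PBS, 6.44 and 4.71 at 6 h and 3.29 and 5.81 at 21 h. The 6 h libraries lay below both PBS libraries, but with the fit used throughout its log2 fold change of -0.94 (adjusted p = 0.281) did not pass.

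After 21 h of Cis, more members had changed. In footprints, 18 of 54 members rose (33.3%) and 5 fell (9.26%), against 18.9% of all transcripts called higher and 20.2% called lower. The difference between the members' shares and those of all transcripts was not itself tested. The median of the members was 0.18 on the log2 scale with 36 of 54 above 0, where the median of all transcripts was 0.01 with 50.6% above 0. Changes were moderate in size: apart from Nol3, which only shares the name, the largest rise was 0.88 on the log2 scale, and 1 member fell by more than 1. Without the symbols that match by name only, 17 of 52 members rose and 5 fell. The plot by role shows the rises spread over the polymerase, snoRNP, small and large subunit groups, and the falls in the small subunit, large subunit and structural groups.

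**Figure D1:**
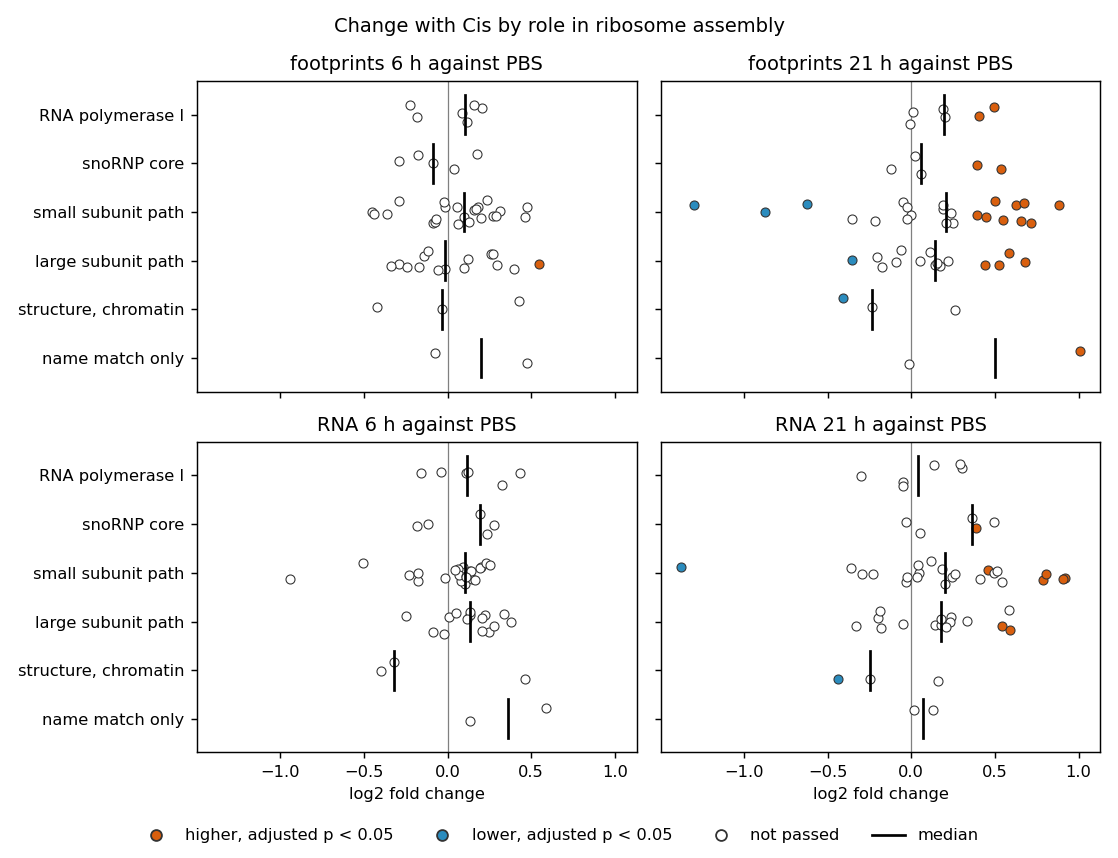
Log2 fold change of each of the 54 tested genes (points) against PBS in 4 panels, footprints above and RNA below, 6 h left and 21 h right, with genes in rows by their role and black bars at the median of each row. Filled points passed an adjusted p of 0.05 in limma. At 6 h 1 footprint point is filled, at 21 h 23 footprint points (18 higher, 5 lower) and 10 RNA points (8 higher, 2 lower) are filled.

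The heat map of all tested members shows the values by library.

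**Figure D2:**
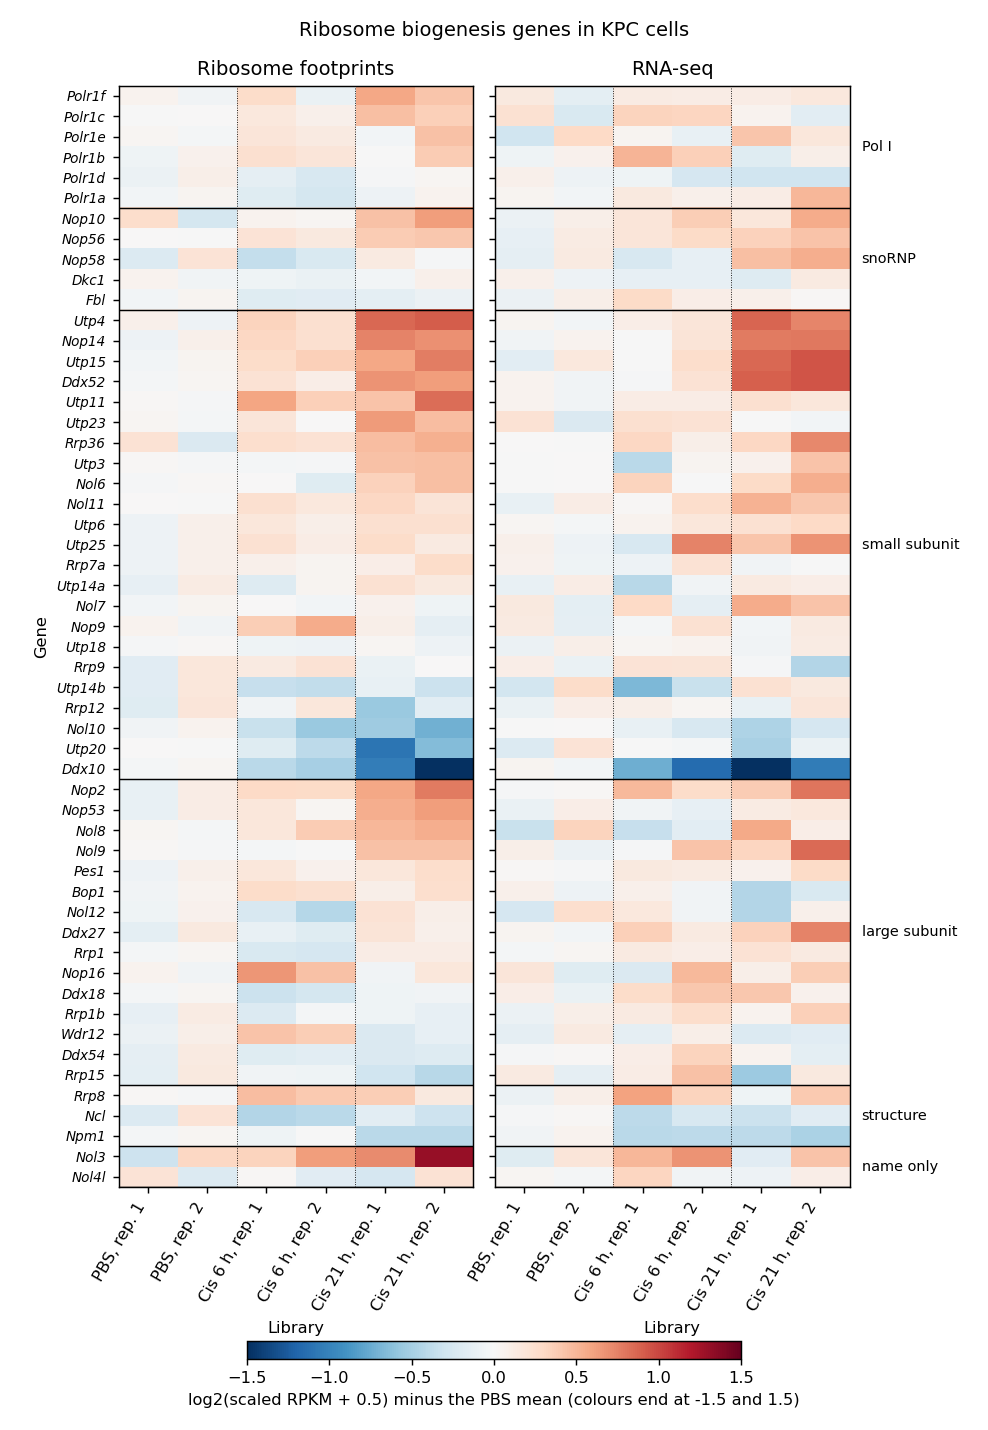
Each row is a gene and each column 1 library (2 per group), footprints left and RNA-seq right. The colour is log2(scaled RPKM + 0.5) minus the mean of the 2 PBS libraries, red for higher and blue for lower, with rows grouped by role and ordered by the footprint change at 21 h. Utp4, Nop14, Utp15 and Ddx52 are red in footprints and RNA at 21 h, and Ddx10 is blue in both.

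Of 6 RNA polymerase I subunits, 2 rose in footprints at 21 h and none fell. Polr1c, a subunit shared with RNA polymerase III, was at 92.9 and 91.8 RPKM in PBS, 104 and 98.5 at 6 h and 130.1 and 121 at 21 h. Both 21 h libraries lay above all others, with a log2 fold change of 0.41 ± 0.09 (SE) and an adjusted p of 0.00745. Its RNA was at 30.3 and 22.6 RPKM in PBS, 31.4 and 31.3 at 6 h and 28.1 and 25.5 at 21 h, with overlapping groups and a change of -0.05 (adjusted p = 0.855). Polr1f, the subunit that contacts the initiation factor Rrn3, was at 21.7 and 19.5 RPKM in PBS, 25.2 and 19.5 at 6 h and 31.8 and 28.3 at 21 h in footprints. The 21 h libraries were again the highest, and the log2 fold change was 0.50 ± 0.16 (SE) with an adjusted p of 0.0335. Polr1a, the largest catalytic subunit, was at 32.5 and 33.6 RPKM in PBS, 29.3 and 27.7 at 6 h and 32.3 and 35.1 at 21 h, and its groups at PBS and 21 h overlapped (-0.01, adjusted p = 0.954). Polr1b, the second largest subunit, was at 31.2 and 33.5 RPKM in PBS, 38.6 and 37.0 at 6 h and 33.0 and 43.3 at 21 h. The lower of its 21 h libraries fell between the PBS libraries, and it did not pass (0.19, adjusted p = 0.341). In RNA none of the 6 subunits passed at 21 h, with log2 fold changes from -0.30 (Polr1d) to 0.30 (Polr1a).

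Of 5 snoRNP core proteins, 2 rose in footprints at 21 h, one from each kind of snoRNP. Nop56, a scaffold of the box C/D particle, was at 400.0 and 388 RPKM in PBS, 459.8 and 440.1 at 6 h and 529 and 532 at 21 h. The order of the groups was PBS, 6 h, 21 h with no overlap, and the log2 fold change at 21 h was 0.39 ± 0.07 (SE) with an adjusted p of 0.00322. RNA of Nop56 rose as well, from 118 and 144 RPKM in PBS to 172 and 191 at 21 h (0.39, adjusted p = 0.0201). Nop10, the smallest protein of the H/ACA particle, was at 468 and 317 RPKM in PBS, 403 and 398 at 6 h and 539.7 and 608 at 21 h. The 21 h libraries were the highest, but the PBS libraries lay far apart. Its log2 fold change was 0.53 ± 0.15 (SE) with an adjusted p of 0.0224. Fbl, the methyltransferase of the box C/D particle, was at 606 and 621 RPKM in PBS, 546 and 551 at 6 h and 568 and 590.4 at 21 h and did not pass (-0.12, adjusted p = 0.232), nor did Dkc1, the pseudouridine synthase (0.02, adjusted p = 0.881), or Nop58, the partner of Nop56 (0.06, adjusted p = 0.755). RNA of Nop58 was at 8.25 and 10.2 RPKM in PBS, 7.31 and 8.02 at 6 h and 13.1 and 14.8 at 21 h. It passed against 6 h (0.68, adjusted p = 0.0274) but not against PBS (0.50, adjusted p = 0.0655). Both outcomes depended on the fit. The call against 6 h was lost with no filter on low values (adjusted p = 0.0529), quantile normalization (0.0534) or eBayes without a trend (0.0578). It was also lost without any 1 library of the contrast, at log2 fold changes of 0.62 to 0.74. Against PBS, RNA of Nop58 passed with voom on the recovered reads (adjusted p = 0.00015) and with RPKM as deposited.

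The small subunit path held 12 of the 23 footprint changes at 21 h, with 9 of its 23 members higher and 3 lower. Utp4, a WD-repeat protein of the UtpA complex that binds the precursor first, was at 121 and 106 RPKM in PBS, 145 and 135 at 6 h and 212 and 218 at 21 h. Its groups were fully ordered, and the log2 fold change at 21 h was 0.88 ± 0.09 (SE) with an adjusted p of 0.000213. RNA of Utp4 was at 29.5 and 28.4 RPKM in PBS, 29.6 and 31.4 at 6 h and 55.2 and 52.7 at 21 h, so that the RNA libraries at PBS and 6 h were close and those at 21 h stood clear (0.80, adjusted p = 0.00133). Utp15, a second member of the UtpA complex, was at 25.1 and 26.0 RPKM in PBS, 31.4 and 33.1 at 6 h and 39.6 and 44.8 at 21 h in footprints (0.67, adjusted p = 0.00287) and at 6.21 and 8.03 RPKM in PBS, 6.72 and 8.20 at 6 h and 13.8 and 15.3 at 21 h in RNA (0.91, adjusted p = 0.00818). Nop14, a factor needed for making 18S rRNA, was at 63.3 and 68.9 RPKM in PBS, 82.7 and 78.8 at 6 h and 114 and 109 at 21 h, a log2 fold change of 0.71 ± 0.10 (SE) and an adjusted p of 0.000804. Its RNA was at 19.7 and 21.8 RPKM in PBS, 19.6 and 22.8 at 6 h and 37.2 and 39.3 at 21 h (0.78, adjusted p = 0.00269). Ddx52, an RNA helicase, was at 81.9 and 83.1 RPKM in PBS, 96.7 and 89.5 at 6 h and 136 and 131 at 21 h, again with no overlap between PBS and 21 h (0.65 ± 0.09 SE, adjusted p = 0.000851). RNA of Ddx52 was at 15.0 and 14.1 RPKM in PBS, 13.7 and 16.3 at 6 h and 28.5 and 31.0 at 21 h, the highest RNA rise of the members (0.92, adjusted p = 0.00199).

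The other 5 small subunit members that rose in footprints did not pass in RNA. Utp11 was at 215 and 203 RPKM in PBS, 317 and 271 at 6 h and 288 and 381 at 21 h, its 2 libraries at 21 h lying far apart but above PBS (0.63, adjusted p = 0.00686). Utp23, an early factor with a PIN domain, was at 45.8 and 43.1 RPKM in PBS and 71.2 and 62.9 at 21 h in footprints (0.55, adjusted p = 0.0058) while its RNA was at 5.84 and 4.25 RPKM in PBS and 5.14 and 5.24 at 21 h, with the 21 h libraries inside the PBS range. Rrp36 passed with 0.50, Utp3 with 0.45 and Nol6 with 0.39 on the log2 scale. Nol11, the metazoan member of the UtpA complex, passed in RNA (0.46, adjusted p = 0.044) and not in footprints (0.25, adjusted p = 0.0636). Rrp9 of the U3 snoRNP, and Utp6 and Utp18 of the UtpB complex, did not pass in either, with footprint changes of -0.05, 0.24 and -0.03.

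The falls of the small subunit path were led by Ddx10, which had the lowest log2 fold change of the 54 members in footprints and in RNA. Its footprints were at 47.9 and 48.4 RPKM in PBS, 36.7 and 34.3 at 6 h and 23.9 and 16.4 at 21 h, each group below the one before, and the log2 fold change at 21 h was -1.30 ± 0.17 (SE) with an adjusted p of 0.000633. RNA of Ddx10 was at 11.8 and 11.3 RPKM in PBS and 3.29 and 5.81 at 21 h (-1.38 ± 0.26 SE, adjusted p = 0.00478). Its TE change, footprints relative to RNA, was 0.08 on the log2 scale (95% interval -0.64 to 0.80, adjusted p = 0.954) at 21 h and did not pass. Utp20, a scaffold of late assembly, was at 12.9 and 12.4 RPKM in PBS, 11.1 and 9.56 at 6 h and 5.77 and 8.04 at 21 h in footprints. Both 21 h libraries lay below all others (-0.87 ± 0.20 SE, adjusted p = 0.00894). RNA of Utp20 was at 3.87 and 5.39 RPKM in PBS and 3.21 and 4.61 at 21 h, with overlapping groups (-0.29, adjusted p = 0.427). Nol10 was at 39.4 and 41.1 RPKM in PBS, 32.3 and 27.6 at 6 h and 28.6 and 24.9 at 21 h in footprints, a log2 fold change of -0.62 ± 0.13 (SE) and an adjusted p of 0.00649, and its RNA change was -0.36 (adjusted p = 0.174).

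**Figure D3:**
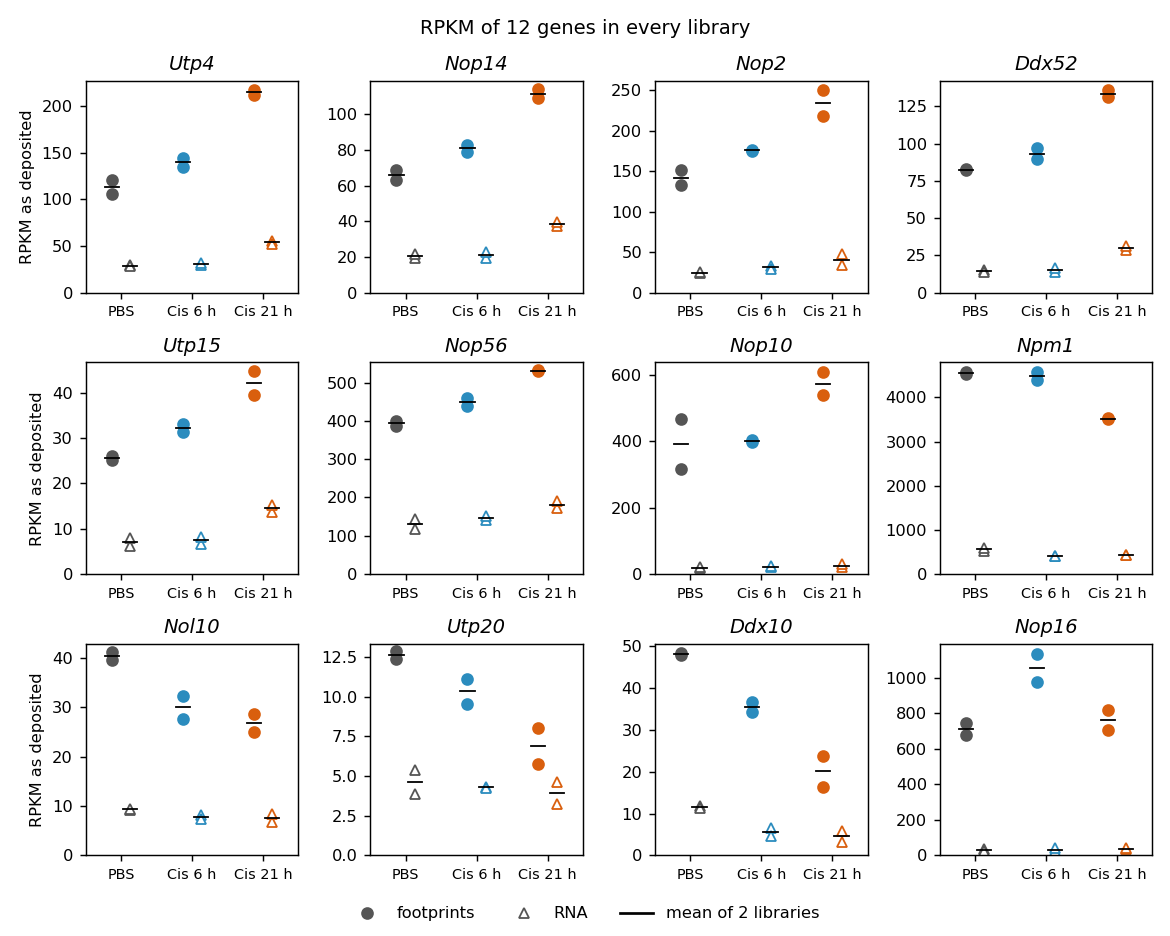
RPKM as deposited in each library of 12 genes (panels, each with its own axis from 0), filled circles for footprints and open triangles for RNA, in PBS (grey), 6 h (blue) and 21 h (orange), with a bar at the mean of the 2 libraries. Footprints of Utp4 go from 121 and 106 in PBS to 212 and 218 at 21 h, those of Ddx10 from 47.9 and 48.4 to 23.9 and 16.4, and those of Nop16 are highest at 6 h.

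Of 15 members of the large subunit path, 4 rose in footprints at 21 h and 1 fell. Nop2, the methyltransferase that modifies a cytosine of 28S rRNA, was at 133 and 152 RPKM in PBS, 177 and 176 at 6 h and 219 and 250.4 at 21 h. The groups were fully ordered, with a log2 fold change at 21 h of 0.68 ± 0.11 (SE) and an adjusted p of 0.00145. RNA of Nop2 was at 24.4 and 25.5 RPKM in PBS, 33.4 and 29.0 at 6 h and 33.7 and 47.7 at 21 h (0.59, adjusted p = 0.0211). Nop53, which recruits the exosome to the maturing large subunit, was at 71.6 and 81.4 RPKM in PBS, 86.9 and 78.8 at 6 h and 115 and 121 at 21 h in footprints (0.59 ± 0.11 SE, adjusted p = 0.0034) with RNA at 15.0 and 17.6 RPKM in PBS and 18.4 and 19.7 at 21 h (0.14, adjusted p = 0.506). Nol8 (0.53) and Nol9, a polynucleotide kinase of rRNA processing (0.44), were the other rises. Rrp15 was at 104 and 124 RPKM in PBS, 110.5 and 109.6 at 6 h and 94.9 and 86.9 at 21 h and fell at 21 h (-0.35 ± 0.11 SE, adjusted p = 0.037).

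Bop1, Pes1 and Wdr12 form the PeBoW complex, which is needed for processing of the large rRNAs. Footprints of Bop1 were at 40.8 and 42.9 RPKM in PBS, 51.3 and 49.9 at 6 h and 45.8 and 51.1 at 21 h, those of Pes1 at 275 and 296 RPKM in PBS, 325 and 302 at 6 h and 331 and 349.9 at 21 h and those of Wdr12 at 23.8 and 26.4 RPKM in PBS, 34.1 and 32.9 at 6 h and 22.0 and 23.5 at 21 h. None of the complex passed at 21 h against PBS, with log2 fold changes of 0.17 (adjusted p = 0.249), 0.22 (adjusted p = 0.0794) and -0.17 (adjusted p = 0.31). Pes1 did pass with voom on the recovered reads (adjusted p = 0.0292) and with RPKM as deposited. The 6 h libraries of Wdr12 stood above both other groups, and its fall from 6 h to 21 h passed (-0.57, adjusted p = 0.0109). Of the DEAD-box helicases of this path, Ddx27 rose in RNA (0.54, adjusted p = 0.0234) with footprints of 102 and 122 RPKM in PBS and 131 and 121 at 21 h that did not pass, and Ddx18 and Ddx54 passed in neither.

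Of the 3 proteins of nucleolar structure and chromatin, Npm1 alone passed. Its footprints were at 4532 and 4577 RPKM in PBS, 4404 and 4584 at 6 h and 3532 and 3512 at 21 h, so that PBS and 6 h overlapped and both 21 h libraries lay well below (-0.41 ± 0.07 SE, adjusted p = 0.00232). RNA of Npm1 was at 533 and 583 RPKM in PBS, 402 and 405 at 6 h and 437 and 437 at 21 h, where the 6 h libraries already lay as low as those at 21 h (log2 fold changes of -0.40, adjusted p = 0.16, at 6 h and -0.44, adjusted p = 0.00193, at 21 h). The RNA call of Npm1 at 21 h was lost with quantile normalization, where the log2 fold change was -0.16 (adjusted p = 0.0648), and with eBayes without a trend (0.0843). Ncl was at 1294 and 1663 RPKM in PBS, 1092 and 1123 at 6 h and 1350.0 and 1206 at 21 h in footprints, with the PBS libraries far apart, and did not pass at 21 h (-0.24, adjusted p = 0.163). It passed with voom on the recovered reads (adjusted p = 0.0221) and without PBS replicate 1 (0.0122). Rrp8, an rRNA methyltransferase that also acts on chromatin, was at 24.7 and 23.3 RPKM in PBS, 33.6 and 32.0 at 6 h and 32.0 and 27.3 at 21 h (0.26, adjusted p = 0.137).

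The symbols Nol3, Nol4 and Nol4l match by name only. Nol3 is an inhibitor of apoptosis and not an assembly factor. Its footprints were at 8.73 and 13.3 RPKM in PBS, 13.9 and 17.1 at 6 h and 18.5 and 28.2 at 21 h, and none of the 54 members rose more (1.01 ± 0.26 SE, adjusted p = 0.0145), though PBS replicate 1 held 30 reads. Its RNA was at 0.639 to 1.5 RPKM over the 6 libraries, or 5 reads in PBS replicate 1. Nol4l was at 8.68 and 6.21 RPKM in PBS and 6.26 and 8.85 at 21 h in footprints and did not pass (-0.02, adjusted p = 0.965).

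Some of these calls were lost when 1 library was left out. Of the 23 footprint calls at 21 h, 14 passed under every one of the 16 alternatives tried (other than a limit on fold change), among them those of Utp4, Nop14, Nop2, Utp15, Ddx52, Nop56, Polr1c, Ddx10, Nol10 and Npm1. Utp20 was lost without PBS replicate 1 (adjusted p = 0.0509), Nol9 without PBS replicate 2 (0.0606), Nol3 without PBS replicate 1 (0.0982) or 21 h replicate 2 (0.0852), and Nop10 without PBS replicate 2 (0.0818) or 21 h replicate 2 (0.107). Polr1f (0.053 to 0.149) was lost without any 1 of the PBS or 21 h libraries, Rrp36 (0.0598 to 0.155) without PBS replicate 2 or either 21 h library, and Nol8 (0.0504 to 0.144) without any of the 6 except 6 h replicate 1. Nol6 (0.0521 to 0.138) was lost without any 1 of the 6, and Rrp15 (0.0521 to 0.205) without any but PBS replicate 1. Without PBS replicate 2 the log2 fold change was 0.27 for Nop10, 0.28 for Rrp36 and -0.21 for Rrp15, while in the other footprint losses it stayed within 1.5 times the value with all libraries. Of the 10 RNA calls at 21 h, Utp15 was lost without PBS replicate 1 (0.0665), Nop56 without PBS replicate 1 (0.153) or 21 h replicate 2 (0.0955), Nop2 (0.0839 to 0.138) and Ddx27 (0.0794 to 0.15) without either PBS library or 21 h replicate 2, and Nol11 (0.0715 to 0.235) when any 1 of the PBS or 21 h libraries was left out. Without 21 h replicate 2 the RNA log2 fold change was 0.38 for Nop2 and 0.35 for Ddx27. Without PBS replicate 1, 5 members passed in RNA (3 higher, 2 lower), and without 21 h replicate 2, 6 (4 higher, 2 lower).

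At 21 h in RNA, 8 of 54 members rose and 2 fell, against 11.6% and 12.2% of all transcripts, and the median log2 fold change was 0.17 over the members and 0.017 over all transcripts. The calls in footprints and RNA were of the same sign for 8 members: Utp4, Utp15, Nop14, Ddx52, Nop2 and Nop56 rose, and Ddx10 and Npm1 fell. They make up 34.8% of the 23 footprint calls and 80% of the 10 RNA calls. A further 15 members passed in footprints alone and Nol11 and Ddx27 in RNA alone, but passing in one and not in the other is no test of a difference. That test is the change in translational efficiency (TE). Across the 54 genes, Spearman's rho of both changes was 0.63, given as a description, since genes share their libraries.

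**Figure D4:**
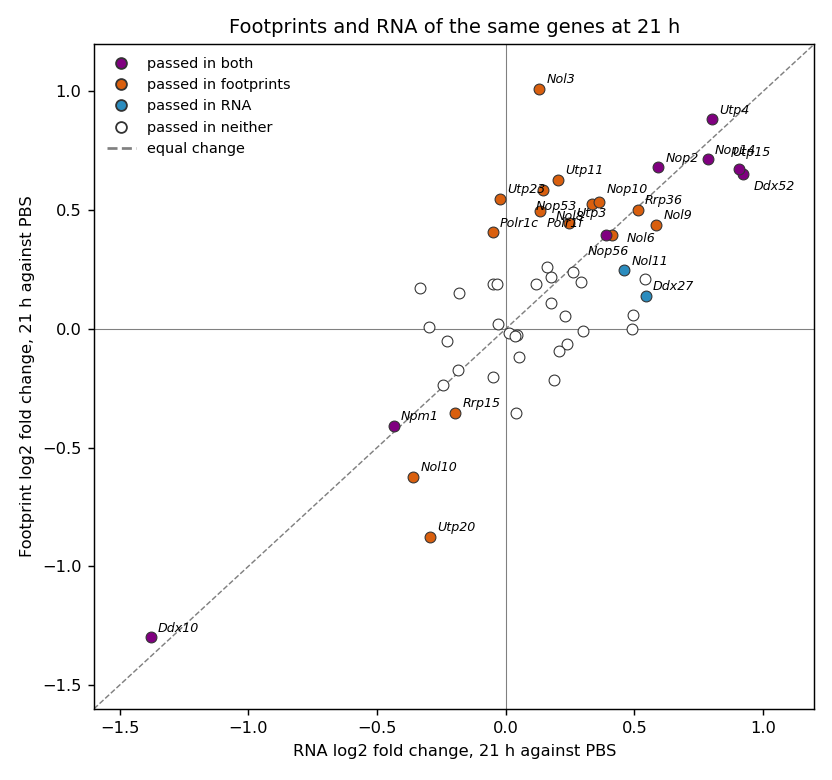
Log2 fold change at 21 h against PBS in RNA (horizontal) and in footprints (vertical), 1 point per tested gene, coloured by the assay in which it passed an adjusted p of 0.05. The dashed line marks equal change. 8 genes passed in both, 15 in footprints and 2 in RNA, and Ddx10 lies at the lower left in both.

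For TE, limma called none of the 54 members at 6 h, where 0% of all 9295 transcripts passed. At an unadjusted p under 0.05 there were 4 members and 710 transcripts, and voom called 1 member, Npm1, and 0.151% of all transcripts. The highest TE changes at 6 h were those of Nol8 (0.52, adjusted p = 0.794) and Ddx10 (0.49, adjusted p = 0.784), the lowest those of Ddx18 (-0.63, adjusted p = 0.382) and Ddx54 (-0.39, adjusted p = 0.733). Footprints of Ddx18 were at 74.5 and 75.6 RPKM in PBS, 60.7 and 63.0 at 6 h and 73.6 and 73.9 at 21 h and its RNA at 16.2 and 14.3 RPKM in PBS, 17.6 and 19.4 at 6 h and 21.1 and 17.4 at 21 h, so that at 6 h footprints lay below and RNA above PBS. At 21 h limma again called no member, against 0.409% of all transcripts (38 of 9295). At an unadjusted p under 0.05 there were 7 members and 1183 transcripts, and voom called no member and 1.62% of all transcripts. The extremes at 21 h were Nol3 (0.88, adjusted p = 0.42) and Utp23 (0.57, adjusted p = 0.328) at the top, and Utp20 (-0.58, adjusted p = 0.487) and Nol7 (-0.49, adjusted p = 0.357) at the bottom. For Utp23, for example, the 95% interval of the TE change ran from 0.08 to 1.07, without adjustment for the number of transcripts tested. The median SE of a member's TE change was 0.21.

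Cis for 21 h was also compared with Cis for 6 h. In footprints, 13 of 54 members were higher at 21 h and 5 lower, against 15% and 15.7% of all transcripts. The higher ones were led by Utp4 (0.59, adjusted p = 0.0023), Ddx52 (0.50, adjusted p = 0.00473), Nop10 (0.49, adjusted p = 0.0379), Nol12 (0.49, adjusted p = 0.0112), Nop53 (0.49, adjusted p = 0.0115) and Nol6 (0.48, adjusted p = 0.0228). Nol12 and Rrp1, both of the large subunit path, passed here although they did not pass against PBS. Footprints of Nol12 were at 88.8 and 95.2 RPKM in PBS, 78.6 and 68.7 at 6 h and 110.0 and 99.8 at 21 h, with the 6 h libraries the lowest. The lower ones were Ddx10 (-0.85, adjusted p = 0.00695), Wdr12, Nop16 (-0.50, adjusted p = 0.00908), Nop9 (-0.49, adjusted p = 0.0288) and Npm1 (-0.37, adjusted p = 0.00528). For Nop16, Wdr12 and Nop9 the 6 h libraries were above both other groups. Nop9, an RNA-binding factor of early assembly, was at 23.7 and 21.5 RPKM in PBS, 29.6 and 33.7 at 6 h and 24.6 and 21.0 at 21 h. These counts rest on all 4 libraries of the contrast: without 6 h replicate 2, 4 members passed (2 higher, 2 lower), without 6 h replicate 1, 9 passed, and without 21 h replicate 2 or 1, 13 or 14. Utp4, Ddx10 and Utp3 passed whichever library was left out, and the other 15 were lost without at least 1 library, at adjusted p of 0.0501 to 0.208. The call of Npm1 was also lost with quantile normalization (-0.21, adjusted p = 0.0549). In RNA, 5 members were higher at 21 h than at 6 h and none lower, against 7.53% and 8.21% of all transcripts. They were Ddx52 (0.82, adjusted p = 0.00574), Utp15 (0.78, adjusted p = 0.023), Nop14 (0.69, adjusted p = 0.00774), Nop58 and Utp4 (0.66, adjusted p = 0.00545).

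The lengths of the genes on the chromosome moved with the footprint changes. Members spanned 0.973 to 150 kb, with a median of 15.7 kb (RefSeq, 53 of 54 tested members matched). Of the 5 members over 50 kb, Ddx10 (150 kb), Nol10 (81.7 kb) and Utp20 (80.2 kb) fell, while Polr1a (70.4 kb) and Nol4l (123 kb) did not pass and none rose. Of the 48 members of at most 50 kb, 17 rose (35.4%) and 2 fell (4.17%). Among all tested transcripts over 50 kb, 51.2% were called lower and 2.31% higher at 21 h, and of those of at most 50 kb 9.69% were called lower and 24.5% higher. Spearman's rho between length and footprint change was -0.36 over the 53 members and -0.49 over all tested transcripts. In RNA it was -0.14 and -0.37. These are descriptions across genes, and the part of gene length in the changes was not tested.

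**Figure D5:**
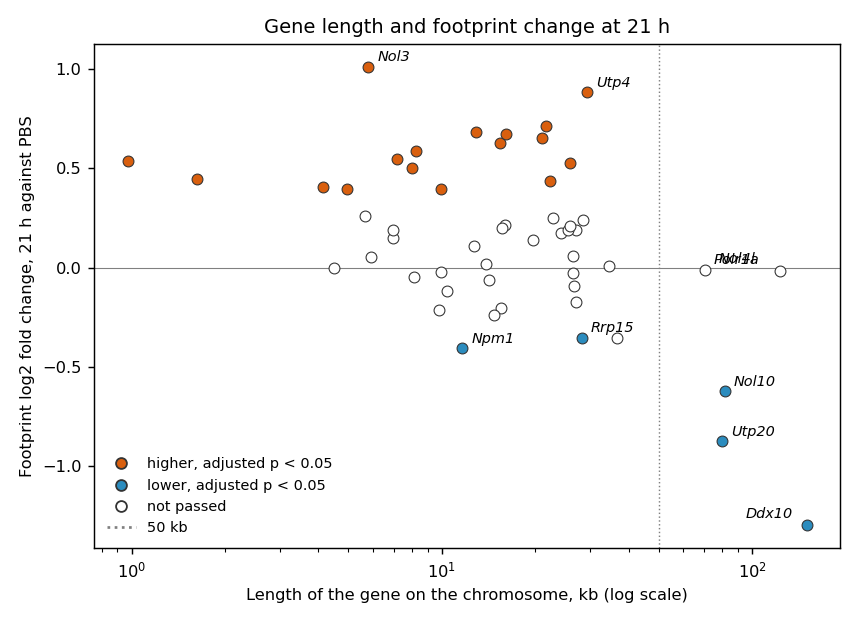
Length of each of 53 genes on the chromosome (kb, log scale) against its footprint log2 fold change at 21 h against PBS. Filled points passed an adjusted p of 0.05, orange higher and blue lower, and the dotted line marks 50 kb. To the right of it stand Ddx10, Nol10, Utp20, Polr1a and Nol4l, with no orange point.

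The windows around the gene starts (250 bases before to 50 after, RefSeq, GRCm38.p6) hold a feature that the choice of members did not use. The E-box CACGTG, the sequence bound by MYC and related factors and the same on both strands, was found in 9 of the 43 members with a window (20.9%) and in 8.09% of the 27025 genes with a window. Only 15803 genes had a read in the series, so the 27025 include genes without reads here. The share among genes with reads was not computed. The E-box was in 2 of 12 members that rose in footprints at 21 h (Nop2 and Utp4), in 1 of 4 that fell (Utp20) and in 6 of 27 that did not pass. These counts are small, and whether the E-box goes with the response was not tested. The 9 sites are shown with up to 12 bases on each side, 5′ to 3′ along the gene, with the E-box in capitals.
Nop2 (chr6:125131811-125131840, plus strand): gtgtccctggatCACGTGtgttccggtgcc
Utp4 (chr8:106893643-106893672, plus strand): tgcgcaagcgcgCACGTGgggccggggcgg
Utp20 (chr10:88826765-88826789, minus strand): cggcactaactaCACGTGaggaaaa
Nol11 (chr11:107189407-107189436, minus strand): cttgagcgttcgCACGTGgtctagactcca
Pes1 (chr11:3963965-3963994, plus strand): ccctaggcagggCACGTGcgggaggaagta
Utp18 (chr11:93885769-93885798, minus strand): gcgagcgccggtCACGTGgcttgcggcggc
Utp25 (chr1:193130211-193130240, minus strand): agccagcgtgccCACGTGcgacagcgacaa
Utp14b (chr1:78658365-78658394, plus strand): cgcgggcgcgggCACGTGggtggggtcgtc
Rrp7a (chr15:83122992-83123021, minus strand): gtgcctgtgcacCACGTGtcctggaactgg
The sites of Nol11, Nop2, Utp14b, Utp18 and Rrp7a begin 43, 60, 63, 20 and 208 bases before the annotated start, and those of Pes1, Utp4, Utp25 and Utp20 begin 2, 15, 23 and 37 bases after it. A match of letters is not evidence of binding. Myc itself was at 135 and 141 RPKM in PBS, 121 and 102 at 6 h and 129.7 and 136 at 21 h in footprints and did not pass at 21 h (-0.09, adjusted p = 0.522), and its RNA was at 32.3 and 38.0 RPKM in PBS and 46.8 and 47.5 at 21 h (0.34, adjusted p = 0.0877).

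Other factors of ribosome assembly, 110 genes outside the symbol families, were read in the same fits, in lists likewise chosen with earlier results known. At 21 h, 42 of them rose in footprints and 7 fell, against 18.9% and 20.2% of all transcripts, with a median of 0.24 on the log2 scale. In RNA 24 rose and none fell, against 11.6% and 12.2%. At 6 h 1 passed in footprints, Eif6, the factor that keeps the 60S subunit from joining too early, which was at 576 and 551 RPKM in PBS, 759 and 783 at 6 h and 996 and 999.9 at 21 h (log2 fold changes of 0.44, adjusted p = 0.0289, at 6 h and 0.79, adjusted p = 0.000108, at 21 h). Of 11 polymerase I factors 6 rose and none fell. The initiation factor Rrn3 was at 51.1 and 49.2 RPKM in PBS, 50.3 and 53.6 at 6 h and 74.0 and 71.3 at 21 h (0.50, adjusted p = 0.00467). Taf1c (1.09, adjusted p = 0.0094) and Taf1a (0.76, adjusted p = 0.029), subunits of the promoter factor SL1, rose most. Taf1c was low, at 2.22 and 3.25 footprint RPKM in PBS and 6.27 and 6.62 at 21 h. Of the same complex, Taf1d was at 32.8 and 43.1 in PBS and 64.6 and 66.7 at 21 h. Taf1b went the other way without passing, from 9.95 and 9.40 in PBS to 7.10 and 8.14 at 21 h. Ubtf, which keeps rRNA genes open, was at 93.5 and 101 RPKM in PBS, 97.1 and 88.5 at 6 h and 79.8 and 83.9 at 21 h and did not pass (-0.28, adjusted p = 0.055).

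Of 33 further small subunit factors 14 rose and 3 fell. Ngdn was at 68.1 and 73.3 RPKM in PBS, 65.4 and 73.4 at 6 h and 177 and 171 at 21 h, with PBS and 6 h overlapping and 21 h far above (1.26, adjusted p = 6.54e-05), and the kinase Riok2 was at 103 and 93.5 RPKM in PBS, 114 and 109 at 6 h and 222 and 223 at 21 h (1.14, adjusted p = 4.87e-05). Aatf (-0.58, adjusted p = 0.00773) and Heatr1 (-0.55, adjusted p = 0.0193) had the largest falls. Of 42 large subunit factors 16 rose, led by Surf6 (0.89, adjusted p = 0.00066) and Eif6, and 1 fell, the giant ATPase Mdn1 (-0.78, adjusted p = 0.0326). Of 11 snoRNP assembly factors 2 rose, Znhit3 (0.92, adjusted p = 0.000219) and Znhit6 (0.53, adjusted p = 0.00532), and 2 fell, Shq1 (-0.96, adjusted p = 0.00995) and Ruvbl1 (-0.35, adjusted p = 0.0167). Of 13 exosome subunits and cofactors 4 rose, led by Exosc2 (0.51, adjusted p = 0.0027) and Exosc1 (0.49, adjusted p = 0.0235), and 1 fell, Exosc8 (-0.30, adjusted p = 0.0155). The median log2 fold change in footprints at 21 h was -0.06 over the exosome list and 0.01 over the snoRNP assembly list. It was 0.50 over the polymerase I, 0.28 over the small subunit and 0.26 over the large subunit lists.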

How the data were processed

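Per the labels and the study's methods, KPC lysates made with cycloheximide were split for RNA-seq and for RNase I digestion, and fragments of about 25-35 nucleotides were sequenced as footprints. The submitters' processing notes name cutadapt, STAR and GRCm39, without versions. The authors deposited RPKM per library, without pooling, for a representative transcript of each gene, divided by coding length for footprints and by transcript length for RNA. Deposited RPKM times length are whole multiples of a single read (100% of values, within 0.001 of a read), which gave reads and depth, and genes not listed in a library were set to 0. Reads carry no molecular identifiers used here. Strand use in counting is not given in the sources used here.

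RPKM were scaled by median-of-ratios factors within each assay (0.981 to 1.022 for footprints, 0.9591 to 1.095 for RNA). Genes with mean scaled RPKM of at least 1 were fitted as log2(RPKM + 0.5) with limma 3.58.1 in R 4.3.3 (lmFit, eBayes with trend, 3 groups in a single model). TE was tested in all 12 libraries together, as an interaction term. Fold changes are on the log2(RPKM + 0.5) scale, which understates changes of low genes. P-values were two-sided, adjusted by Benjamini-Hochberg over all transcripts tested and called under 0.05. An exact permutation test of 2 against 2 libraries gives no p below 0.333. The code was tested on simulated data.

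Members and lists were chosen with earlier results of these data known. Named genes were 12 fixed anchors, the 6 highest and 6 lowest calls of each comparison, the extremes of TE, the name matches, Myc, Ubtf and Rrn3, and the 2 largest changes each way of each outside list. Others in the text were chosen after their values were seen. Alternatives were 2 other pseudocounts, other filters, scalings, thresholds and fits, a replicate block, RNA without Lars2 and Tmem38b, and leaving out each library. Gene lengths and start windows come from RefSeq tables of GRCm38.p6, another build than that of the files, and no coordinates were converted.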

Additional observations from a re-analysis of the deposited data

Results flagged for a closer look

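For 18 members in footprints and 5 in RNA, levels after 21 h of Cis differed from those after 6 h of Cis by limma with Benjamini-Hochberg adjustment. Of all transcripts, 15% were higher and 15.7% lower at 21 h than at 6 h in footprints, and 7.53% and 8.21% in RNA. In footprints the log2 difference of 21 h minus 6 h was positive for 13 members. It was 0.59 for Utp4, 0.50 for Ddx52, 0.49 for Nop10, 0.49 for Nol12, 0.49 for Nop53, 0.48 for Nol6, 0.47 for Utp3, 0.46 for Nol9, 0.45 for Utp23, 0.44 for Nop14, 0.39 for Nop2, 0.35 for Rrp1 and 0.29 for Polr1c. It was negative for 5 members, at -0.85 for Ddx10, -0.57 for Wdr12, -0.50 for Nop16, -0.49 for Nop9 and -0.37 for Npm1. In RNA the difference was 0.82 for Ddx52, 0.78 for Utp15, 0.69 for Nop14, 0.68 for Nop58 and 0.66 for Utp4. The PBS libraries cancel in this difference and carry no label of time, so time with Cis and time in culture cannot be told apart. Of the members named, Ddx10, Utp3 and Utp4 in footprints and Ddx52, Nop14 and Utp4 in RNA passed under every alternative tried other than a limit on fold change.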

How the results depend on the processing

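Of 161 recomputed counts of called members 130 stayed within 1.5 times the count reported, and of 145 recomputed medians 141 moved by less than the spread between replicates. The 130 include counts of 0 that stayed 0, as in most settings for RNA at 6 h and for TE. The spread was 0.062 in footprints, 0.13 in RNA and 0.15 in TE. Medians at 6 h, from 6 h to 21 h in RNA, and in TE were themselves smaller in size than this, so the tally cannot show that they held. At 6 h in footprints the 1 call became 0 with a log2 fold change above 1 in addition, with no filter on low values, with eBayes without trend and with the replicate block, 2 with only the groups compared in the fit and 12 (7 higher, 5 lower) with voom on the recovered reads, which called 1276 of all 10383 transcripts (454 higher, 822 lower). At 21 h in footprints 2 members passed with a log2 fold change above 1 (23 without that limit), and quantile normalization moved the median to 0.11. From 6 h to 21 h in footprints the count was 0 with that limit and 10 without trend. In RNA, voom called 3 members at 6 h. At 21 h, 16 passed at an adjusted p under 0.1, 1 with a log2 fold change above 1 and 5 without trend. From 6 h to 21 h in RNA the count was 0 with that limit, 3 with no filter, 3 without trend and 8 with voom, and the median was 0.22 with RPKM as deposited, where the median of all transcripts moved from 0.01 to 0.15 and 70.6% of all calls were higher in place of 47.8%. For TE at 6 h voom called 1 member. The cause of these shifts was not tested.

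Leaving out 1 library at a time gave 0 to 2 members in footprints at 6 h, 16 to 21 at 21 h and 4 to 21 between the time points, and in RNA 0 to 0, 5 to 11 and 3 to 5. TE gave 0 to 0 at both times. Medians ranged in footprints from 0.0038 to 0.07, from 0.12 to 0.24 and from 0.12 to 0.22, in RNA from 0.09 to 0.14, from 0.09 to 0.18 and from -0.0082 to 0.15, and for TE from -0.08 to 0.04 at 6 h and from -0.09 to 0.03 at 21 h. Some genes that did not pass at 21 h turned sign. In footprints Polr1a was 0.026 with RPKM as deposited and Dkc1 -0.066 with quantile normalization, and leaving out libraries gave -0.072 to 0.052 for Polr1a, -0.0088 to 0.39 for Polr1b, -0.15 to 0.26 for Nop58 and -0.036 to 0.078 for Dkc1. In RNA Polr1b was 0.030 and Dkc1 0.052 with RPKM as deposited and Wdr12 0.0033 with quantile normalization, and leaving out libraries gave -0.19 to 0.087 for Polr1b, -0.040 to 0.14 for Fbl and -0.19 to 0.13 for Dkc1.

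Replicate numbers do not pair the libraries: deviations of same-numbered libraries correlated between -0.05 and 0.05. With the replicate block, Nop16 was lost at 6 h (adjusted p = 0.0688), and 20 members passed in footprints at 21 h (16 higher, 4 lower), without Nol6 (0.0594), Nol8 (0.053) and Rrp15 (0.0533), 18 between the time points, 11 in RNA at 21 h and 5 between the time points.

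Depth was lower in RNA, which also enters TE; its part in the spread was not tested. With voom, 4649 transcripts passed in footprints at 21 h in place of 4061.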
